A study of Mus musculus with 6 samples.

Results

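Tenascins, thrombospondins, periostin and SPARC are matricellular proteins, secreted into the matrix where they steer cell adhesion and signalling more than they bear load. The 10 genes described here are Tnc, Tnn and Tnxb (tenascins), Thbs1, Thbs2, Thbs3, Thbs4 and Comp (thrombospondins), Postn (periostin) and Sparc, taken by symbol from the 19938 genes that had an array row paired with exactly 1 gene. The family list was selected on log2 differences between the tumor sites that were already known for some of its genes, and each array row by its mean over the 6 tumors, so the site differences of these genes are given as a description. The tumors were grown from Renca, a renal carcinoma cell line of BALB/c origin, in BALB/c mice. In the intrakidney group, cells had been placed in the outer cortex of the kidney, and in the subcutaneous group under the skin. Each group held 3 tumors, each from its own mouse, frozen on day 12, and no agent or engineered allele is named for either group. Whole tumors were used, so host cells that had entered the tumor and tissue cut out with it share the RNA with Renca cells, and in such bulk samples fewer cells of a type and less RNA per cell cannot be told apart.

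As background, tenascins and periostin are made mainly by fibroblasts during development, wound repair and in tumor stroma, and bind to fibronectin, collagens and cell surface integrins. Thrombospondins fall into subgroup A (Thbs1 and Thbs2, trimers that carry type 1 repeats and restrain vessel growth) and subgroup B (Thbs3, Thbs4 and Comp, pentamers without those repeats, found in muscle, tendon and cartilage). SPARC binds collagen and calcium and takes part in collagen fibril assembly.

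All values are log2 RMA expression values, in which a difference of 1 is a doubling, and array medians lay between 7.08 and 7.11. Of 8 epithelial and renal carcinoma genes, 0 passed with limma between the sites (0 higher and 1 lower at an unadjusted p of 0.05, against 4.72% and 3.71% of all genes). Their differences (intrakidney minus subcutaneous) ran from -0.52 for Cdh1, the gene of E-cadherin, whose groups did not overlap, to 0.25 for the keratin gene Krt19, with the abundant keratin gene Krt8 at -0.09 and the renal lineage factor gene Pax8 at 0.05. Averaged over 15 proximal tubule genes, the value was 6.61, 6.95 and 7.50 for intrakidney tumors 1, 2 and 3, against 6.52 to 6.67 in subcutaneous tumors, so the mean was above every subcutaneous tumor in intrakidney tumors 2 and 3 and within the subcutaneous range in intrakidney tumor 1. Of the 15 genes 0 passed with limma (3 higher and 1 lower at an unadjusted p of 0.05). In intrakidney tumors 13 had a higher mean and 2, Aqp1 and Gatm, a lower mean, against 52% lower among all genes. The median difference of the list was 0.27. Cyp2e1, a cytochrome P450 gene of kidney and liver, measured 8.36, 7.41 and 10.02 in intrakidney tumors, against 5.87 to 6.24 in subcutaneous tumors, while the water channel gene Aqp1 measured 8.60, 7.87 and 7.94 in intrakidney tumors, against 9.07 to 9.29 in subcutaneous tumors.

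The promoters of the 3 genes with the widest ranges are shown because their values lay farthest apart between the sites. Each is the RefSeq window of 250 bases before to 50 after an annotated start on GRCm38.p6, read on the gene's own strand. Tnn is at chr1:160153526-160153825 (minus strand), Thbs2 at chr17:14694213-14694512 (minus strand) and Postn at chr3:54360857-54361156 (plus strand). Capitals mark matches to TATAAA, searched on both strands together with TGANTCA and the CArG box.
Tnn: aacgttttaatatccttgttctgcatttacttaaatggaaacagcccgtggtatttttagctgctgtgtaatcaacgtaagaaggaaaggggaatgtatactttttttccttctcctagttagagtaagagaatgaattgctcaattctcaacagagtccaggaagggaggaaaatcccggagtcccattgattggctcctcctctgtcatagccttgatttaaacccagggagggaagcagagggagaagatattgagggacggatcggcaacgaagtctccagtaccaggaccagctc
Thbs2: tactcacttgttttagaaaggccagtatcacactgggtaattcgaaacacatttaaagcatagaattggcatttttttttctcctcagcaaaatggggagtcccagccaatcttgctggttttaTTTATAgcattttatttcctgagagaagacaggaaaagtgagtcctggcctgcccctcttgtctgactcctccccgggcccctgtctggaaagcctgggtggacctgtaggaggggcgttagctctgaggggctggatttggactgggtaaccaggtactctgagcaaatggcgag
Postn: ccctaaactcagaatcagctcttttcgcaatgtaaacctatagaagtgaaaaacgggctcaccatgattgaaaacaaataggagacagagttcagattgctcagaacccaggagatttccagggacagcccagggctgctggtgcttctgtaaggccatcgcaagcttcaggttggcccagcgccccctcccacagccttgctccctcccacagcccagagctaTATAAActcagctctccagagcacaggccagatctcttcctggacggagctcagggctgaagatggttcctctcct

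The Postn window held TATAAA from -26 to -21, counted from the first transcribed base. The Thbs2 window held it on the opposite strand from -126 to -121, and the Tnn window held none of the 3 motifs. Among 32851 mouse promoter windows of this length, 13.6% held TATAAA, 7.81% held TGANTCA and 1.63% held a CArG box. Promoters were listed for 8 of the 10 genes. Tnc has 2 listed starts, and their windows overlap. Both held the same TATAAA, which lies at -126 to -121 from one start and at -205 to -200 from the other. The Tnxb window held TGANTCA from -55 to -49. A second listed Postn window, upstream of the one shown, and the windows of Thbs3, Thbs4 and Sparc held none of the 3 motifs. No motif was found in the windows of all 3 genes shown.

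**Figure D1:**
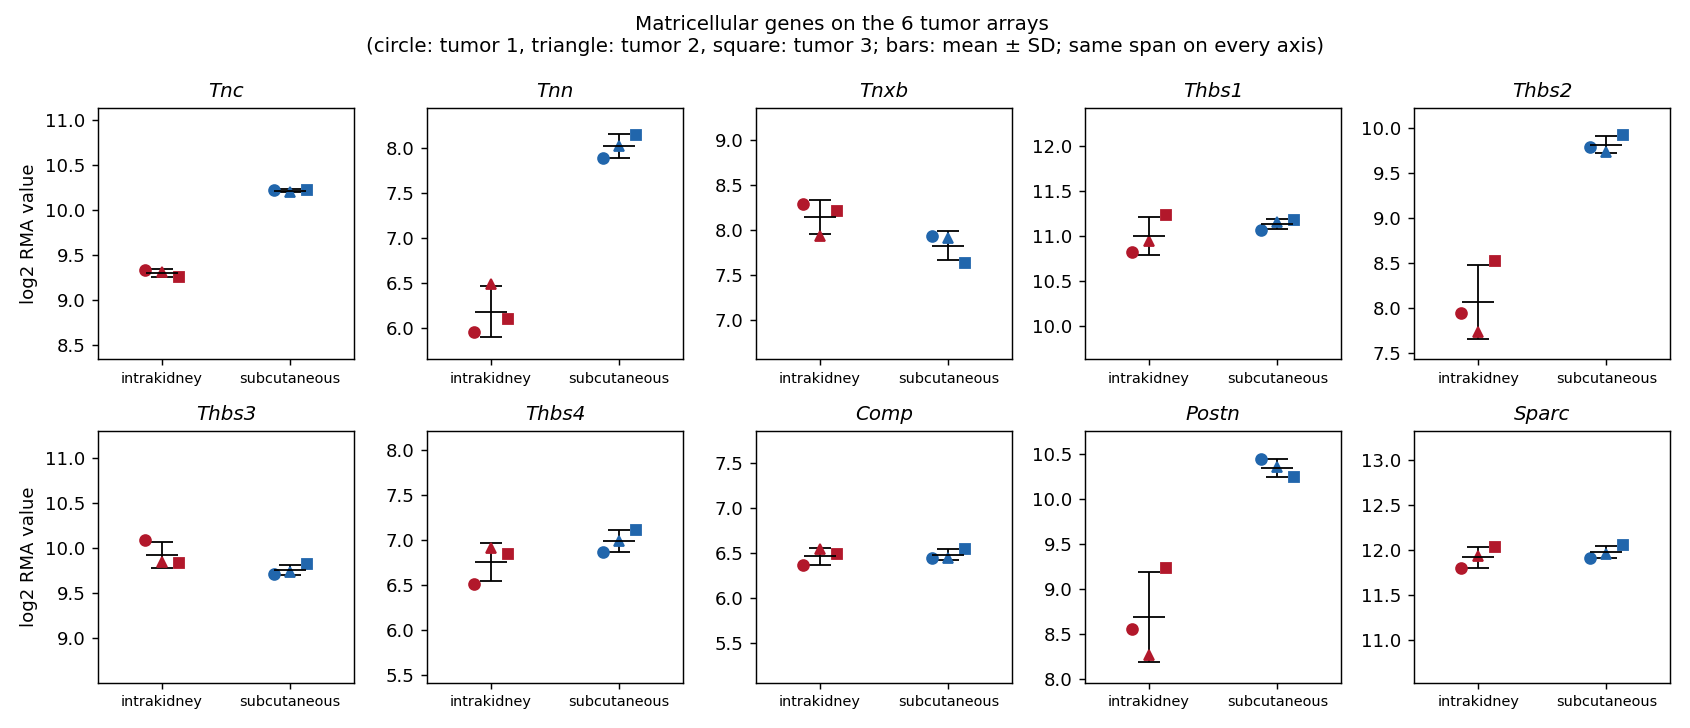
Log2 RMA value (y axis, same span in every panel) of each gene in intrakidney and subcutaneous tumors (x axis); symbols are single tumors and bars are mean ± SD of 3. Tnc, Tnn, Thbs2 and Postn lie lower in every intrakidney tumor than in any subcutaneous tumor, and the other 6 genes lie close together or overlap, Thbs3 being apart by 0.0071.

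Of the 3 tenascins, Tnn and Tnc passed the threshold over all genes as lower in intrakidney tumors and Tnxb did not pass. Tnn (transcript cluster 10359307), which encodes tenascin-W of developing bone and tumor stroma, measured 5.95, 6.50 and 6.11 in intrakidney tumors, against 7.89, 8.03 and 8.15 in subcutaneous tumors. The groups were 1.39 apart at their nearest arrays. Tnn fell by 1.84 ± 0.14 on the log2 scale in intrakidney tumors (SE, 3.57-fold).

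Tnc (transcript cluster 10513739), the tenascin of wounds and tumor margins, measured 9.33, 9.31 and 9.25 in intrakidney tumors, against 10.22, 10.20 and 10.22 in subcutaneous tumors. It was the steadiest of the 10 genes: its SD was 0.043 in intrakidney and 0.012 in subcutaneous tumors (n = 3 each), and its spread within groups was at the 2.18th percentile of all genes. Tnc fell by 0.92 ± 0.07 on the log2 scale (SE, 1.89-fold), a smaller difference than that of Tnn.

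Tnxb (transcript cluster 10444459), which encodes tenascin-X, a partner of collagen fibrils in skin and muscle, had the higher mean in intrakidney tumors. It measured 8.29, 7.94 and 8.22 in intrakidney tumors, against 7.94, 7.91 and 7.64 in subcutaneous tumors. The groups overlapped, since intrakidney tumor 2 lay just below subcutaneous tumor 1. The difference was 0.31 (95% interval 0.03 to 0.60) and did not pass over all genes.

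Of the thrombospondins of subgroup A, Thbs2 passed and Thbs1 did not. Thbs2 (transcript cluster 10447951), which encodes a matrix thrombospondin of fibroblasts that limits angiogenesis, measured 7.93, 7.73 and 8.52 in intrakidney tumors, against 9.79, 9.72 and 9.92 in subcutaneous tumors. Every intrakidney tumor was lower by at least 1.20, and Thbs2 fell by 1.75 ± 0.19 on the log2 scale (SE, 3.36-fold).

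Thbs1 (transcript cluster 10474700), whose protein activates latent TGF-beta and binds CD36 and CD47, measured 10.82, 10.95 and 11.23 in intrakidney tumors, against 11.07, 11.16 and 11.17 in subcutaneous tumors. Intrakidney tumor 3 was the highest and intrakidney tumor 1 the lowest of all 6 tumors, so the groups overlapped. The difference was -0.13 (95% interval -0.39 to 0.13), which does not overlap the interval of Thbs2 (-2.18 to -1.31); the difference between the 2 genes was not tested. Platelets are a known store of thrombospondin-1, and the mean of 4 platelet genes was 6.87, 6.95 and 7.14 in intrakidney tumors, against 6.84 to 6.91 in subcutaneous tumors; its part in the Thbs1 values was not tested.

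Of the 3 thrombospondins of subgroup B, 0 passed with limma, at an adjusted or an unadjusted p of 0.05. Thbs3 (transcript cluster 10493449), expressed in bone and cartilage among other tissues, measured 10.09, 9.84 and 9.83 in intrakidney tumors, against 9.72, 9.73 and 9.83 in subcutaneous tumors. The groups did not overlap, but only by 0.0071, and the difference of 0.16 (95% interval -0.05 to 0.37) did not pass. Thbs4 (transcript cluster 10411082), a thrombospondin of tendon, muscle and heart, measured 6.51, 6.90 and 6.84 in intrakidney tumors, against 6.87, 6.98 and 7.11 in subcutaneous tumors. These groups overlapped, with intrakidney tumor 1 clearly the lowest, and the difference was -0.23 (95% interval -0.51 to 0.04).

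Comp (transcript cluster 10572378), which encodes cartilage oligomeric matrix protein, measured 6.36, 6.54 and 6.48 in intrakidney tumors, against 6.45, 6.45 and 6.55 in subcutaneous tumors. The groups were interleaved, with a difference of -0.02 (95% interval -0.20 to 0.16). Comp alone of the 10 lay under the 40th percentile of mean value over all genes, where RMA compresses changes. That cut uses the mean of all 6 tumors. In intrakidney tumors alone the mean of Tnn, 6.18, was below that of Comp, 6.46, so the same limit applies to the intrakidney values of Tnn. The mean of 8 cartilage and tendon genes was 6.57 to 7.00 in intrakidney tumors, against 6.87 to 7.00 in subcutaneous tumors, and likewise overlapped.

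Postn (transcript cluster 10492021), whose protein binds collagen, tenascin-C and integrins and promotes collagen cross-linking, measured 8.56, 8.27 and 9.24 in intrakidney tumors, against 10.44, 10.36 and 10.25 in subcutaneous tumors. The nearest arrays of the groups were 1.01 apart. Postn fell by 1.66 ± 0.22 on the log2 scale (SE, 3.16-fold).

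Sparc (transcript cluster 10386058) measured 11.80, 11.94 and 12.03 in intrakidney tumors, against 11.92, 11.96 and 12.05 in subcutaneous tumors. The groups overlapped, with a difference of -0.06 (95% interval -0.25 to 0.14). A 2-fold change in either direction lies outside that interval.

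**Figure D2:**
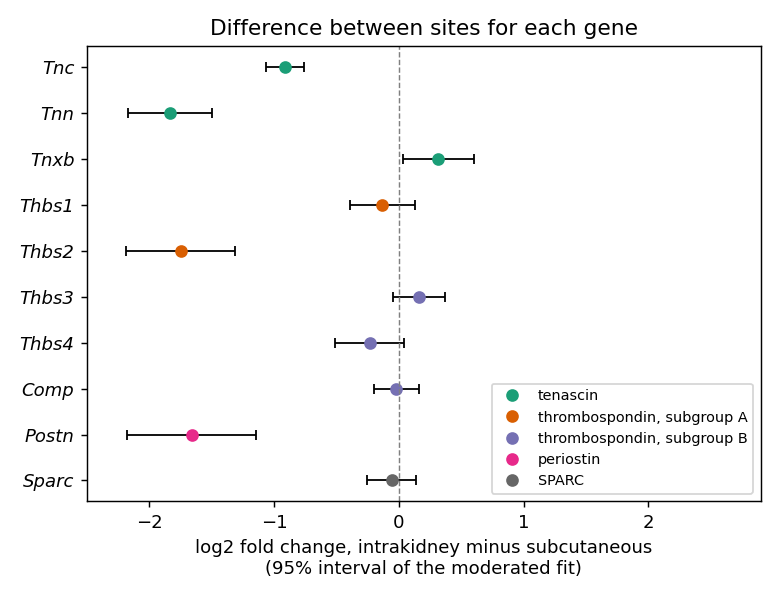
Log2 fold change, intrakidney minus subcutaneous (x axis), of each gene (y axis) with the 95% interval of the moderated fit over 3 tumors per group; colours mark the protein families. Tnn, Thbs2 and Postn lie between -1.84 and -1.66, Tnc at -0.92, and the other 6 between -0.23 and 0.31.

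In the limma fit over all genes, 4 of the 10 were lower in intrakidney tumors at an adjusted p under 0.05, Tnn, Thbs2, Postn and Tnc, and 0 were higher. Of all genes tested 0.231% passed, 0.1% as lower and 0.13% as higher. At an unadjusted p of 0.05 the same 4 were lower and 1, Tnxb, was higher, against 3.71% and 4.72% of all genes. Because the genes were proposed from this comparison, nothing is read from these counts. The intrakidney values lay wholly below the subcutaneous values for 4 of the 10, against 6.53% of all genes, and wholly above for 1 of the 10, Thbs3, against 8.41% of all genes. The median log2 fold change of the 10 was -0.18, that of all genes -0.0058. It was -0.08 without intrakidney tumor 1, -0.26 without intrakidney tumor 3, -0.08 with array weights and -0.39 with intrakidney tumors 2 and 3 left out. The calls depended on single arrays: 0 of the 10 passed without any one of the subcutaneous tumors 1, 2 or 3, while only Tnc and Tnn passed without intrakidney tumor 1. Over these 6 settings the Tnn difference lay between -1.99 and -1.72, that of Thbs2 between -1.98 and -1.58, that of Postn between -1.94 and -1.45 and that of Tnc between -0.93 and -0.89. With the replicate number as a block, 0 passed.

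Spread among tumors of one site was not used to choose the genes, and it set them apart from one another. The SD of Postn was 0.50 in intrakidney and 0.10 in subcutaneous tumors, and that of Thbs2 was 0.41 in intrakidney and 0.10 in subcutaneous tumors (n = 3 each). Within groups, their spread was at the 98.5th and 96.7th percentile of all genes. Both genes were lowest in intrakidney tumor 2 and highest in intrakidney tumor 3.

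The mean of 12 fibroblast marker genes, none of them among the 10, had the same order, with 9.44, 9.35 and 9.85 in intrakidney tumors 1, 2 and 3. Of its 12 genes, 6 were lowest in intrakidney tumor 2 and highest in intrakidney tumor 3. These were the collagen genes Col1a1, Col1a2 and Col3a1, the proteoglycan genes Dcn and Lum, and the platelet-derived growth factor receptor gene Pdgfra. The other markers had other orders. Thy1 and Pcolce were lowest in intrakidney tumor 3 and highest in intrakidney tumor 2. Pdgfrb and Fbln1 were lowest in intrakidney tumor 1 and highest in intrakidney tumor 2. Fap was lowest in intrakidney tumor 2 and highest in intrakidney tumor 1, and Mmp2 rose from intrakidney tumor 1 to 3. Over all genes 9.01% showed that order. Col1a1, the main fibrillar collagen chain, measured 10.93, 10.73 and 11.78 in these tumors. Intrakidney tumor 3 also had the highest proximal tubule mean, and the part of kidney tissue in this order was not tested.

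Tnn and Tnc did not share that order. Tnn was highest in intrakidney tumor 2, by 0.39 over intrakidney tumor 3, and Tnc differed by at most 0.083 among the 3 tumors. Thbs1 and Sparc were lowest in intrakidney tumor 1 and highest in intrakidney tumor 3, in the order of the proximal tubule mean. Of all genes, 43.7% were lowest in intrakidney tumor 1, 40.8% highest in intrakidney tumor 2 and 24.2% highest in intrakidney tumor 3. A link of either gene to kidney tissue was not tested. Among the 4 genes that differed most between sites, Postn and Thbs2 thus shared an order and Tnn had another. Tnn was lowest and highest in the tumors where most genes were. The Tnc values lay too close together for an order to be read.

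**Figure D3:**
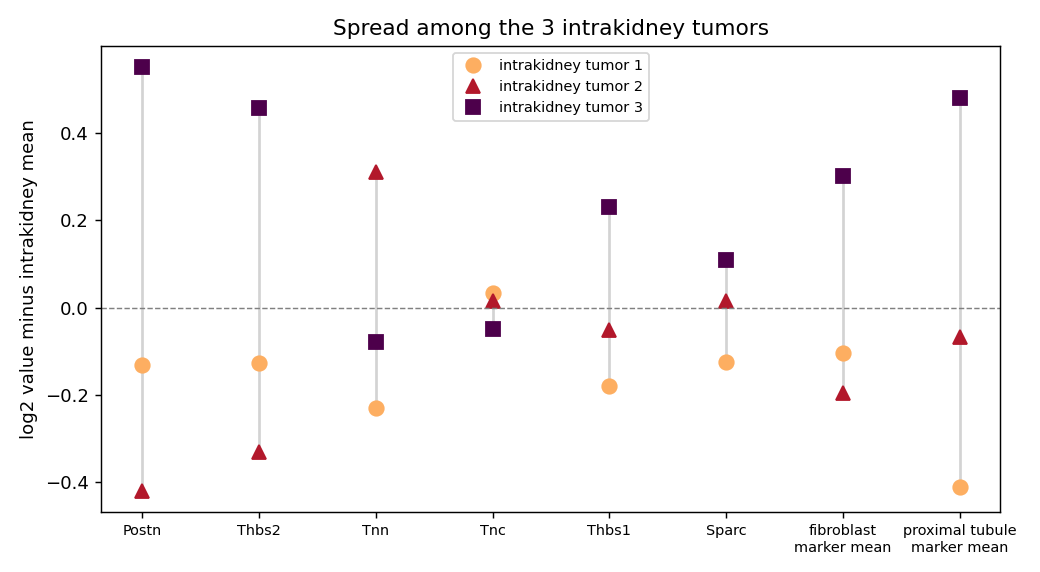
Log2 value minus the mean of the 3 intrakidney tumors (y axis) for 6 genes and the means of the fibroblast and proximal tubule markers (x axis); symbols are the 3 intrakidney tumors. Postn and Thbs2 have the same order as the fibroblast mean, Tnc hardly varies, and Tnn is highest in intrakidney tumor 2.

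The mean of the 12 fibroblast markers was 9.35 to 9.85 in intrakidney tumors, against 9.86 to 9.97 in subcutaneous tumors. Of the 12, 10 had a lower mean in intrakidney tumors, against 52% of all genes, and 0 passed with limma. At an unadjusted p of 0.05, 6 were lower and 0 higher, against 3.71% and 4.72% of all genes. The markers differed among themselves: Col1a1 differed by -0.94 and Lum by -1.07, but Pdgfrb by -0.06, Fap by 0.06, Pcolce by -0.03 and Dcn by 0.46. Their part in the differences of the 10 genes was not tested.

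Markers of other cell types also differed between sites. The mean of 8 adipocyte genes was 7.51 to 7.67 in intrakidney tumors, against 6.53 to 6.69 in subcutaneous tumors. Of the 8, 3 rose past the threshold, against 0.13% of all genes, Car3 by 3.41, Fabp4 by 2.08 and Cidec by 0.66 on the log2 scale. Adipoq, at 1.14, and Retn, at 0.57, did not pass. Plin1, at 0.15, Lipe, at 0.06, and Lep, at 0.03, overlapped between the sites. The mean of 5 endothelial genes was 8.40 to 8.49 in intrakidney tumors, against 7.98 to 8.16 in subcutaneous tumors. Of the 5, 1 rose past the threshold, against 0.13% of all genes, the endothelial sialomucin gene Emcn, by 0.72. At an unadjusted p of 0.05 in limma, 4 were higher and 0 lower, against 4.72% and 3.71% of all genes. Pecam1 differed by 0.0088, with overlap. Of 6 smooth muscle and pericyte genes 0 passed with limma (2 higher and 0 lower at an unadjusted p of 0.05), and their mean overlapped, at 8.24 to 8.36 in intrakidney tumors, against 8.18 to 8.28 in subcutaneous tumors. Within that list 3 genes lay wholly higher in intrakidney tumors, against 8.41% of all genes: Acta2, by 0.37, Tagln, by 0.39, and Myh11, by 0.07. The other genes overlapped, with Rgs5 at -0.31, Des at -0.02 and Cnn1 at 0.01. Keratinocyte genes were at 6.03 to 6.25 in intrakidney tumors, against 6.11 to 6.27 in subcutaneous tumors, and skeletal muscle genes at 6.76 to 7.02 in intrakidney tumors, against 6.87 to 7.07 in subcutaneous tumors, both with overlap. Of these 6 and 7 genes 0 passed with limma, and at an unadjusted p of 0.05 0 keratinocyte genes differed and 1 skeletal muscle gene was lower. The part of these cell types in the differences of the 10 genes was not tested.

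In intrakidney tumor 1, whose proximal tubule mean lay within the subcutaneous range although its Cyp2e1 value was above and its Aqp1 value below it, Tnn differed from the subcutaneous mean by -2.07, Thbs2 by -1.88, Postn by -1.79 and Tnc by -0.88 on the log2 scale. These differences rest on a single intrakidney tumor, whose spread cannot be estimated. With all tumors the SD of Tnn, Thbs2, Postn and Tnc was larger in intrakidney than in subcutaneous tumors. No call of these genes is therefore given with intrakidney tumors 2 and 3 left out, and the part of kidney tissue was not tested.

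Profiles over the 6 tumors were compared by the root mean square difference after each gene was centred on its own mean, as a description. This measure includes the difference between the sites, on which the list was selected, so genes with a like site difference come out near. Postn and Thbs2 were nearest to each other, at 0.12 on the log2 scale. Among genes outside the 10, those nearest to Postn were Aspn (0.21), a small proteoglycan gene of connective tissue, C1qtnf3 (0.21), a secreted C1q-related protein gene, and Akr1c18 (0.28), which encodes a steroid dehydrogenase. Those nearest to Thbs2 were the same genes, with C1qtnf3 first (0.20), then Aspn (0.26) and Akr1c18 (0.32). Tnn was nearest to Prss35 (0.30), a protease-like gene, followed by C1qtnf3 (0.32) and Lrrc15 (0.32), which encodes a membrane protein of activated fibroblasts. These genes outside the 10 differed between sites by -1.47 (Aspn) to -1.26 (Akr1c18). Tnc had a range under 1 and was not compared.

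Expression of the genes of matrix proteins that these genes' products bind or help to assemble was lower in part. At an unadjusted p of 0.05 in limma, 8 of 16 measured were lower and 1, Fn1, was higher, against 3.71% and 4.72% of all genes. Of the 16, 3 fell past the threshold with limma, against 0.1% of all genes, and 0 passed as higher. They were the collagen VI chains Col6a1, by 0.84 (adjusted p = 0.0191), Col6a3, by 0.73 (adjusted p = 0.0228), and Col6a2, by 0.60 (adjusted p = 0.0280), which together form beaded microfilaments around cells. Col6a1 measured 9.11, 8.88 and 9.10 in intrakidney tumors, against 9.81, 9.89 and 9.92 in subcutaneous tumors, without overlap. Of these 3 calls, 0 held without any one of the subcutaneous tumors or with the replicate block, and 1, Col6a1, without intrakidney tumor 1 or 2. The list had a median of -0.40 and 14 of 16 members below 0, against 52% of all genes. Col1a1, Col1a2, Col3a1 and Dcn are also among the fibroblast markers, so the results of these lists partly rest on the same genes. The fibronectin gene Fn1, whose product tenascin-C binds, measured 11.21, 11.12 and 11.60 in intrakidney tumors, against 10.46, 10.49 and 10.04 in subcutaneous tumors, a difference of 0.98 that did not pass (adjusted p = 0.0953).

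Among 18 other matricellular genes, 0 passed with limma in either direction (1 lower and 0 higher at an unadjusted p of 0.05, against 3.71% and 4.72% of all genes), with a median of -0.10. The lowest adjusted p was that of Spock3, a testican gene of the SPARC family, which differed by -0.26 (adjusted p = 0.465). The tenascin-R gene Tnr, known from the nervous system, differed by -0.18 (adjusted p = 0.711), and Tgfbi, a relative of periostin with the same fasciclin domains, by -0.18 (adjusted p = 0.711). Tgfbi measured 10.54, 10.31 and 10.34 in intrakidney tumors, against 10.72, 10.46 and 10.55 in subcutaneous tumors, which overlap. The widest difference of the list was that of Vtn, the gene of the blood protein vitronectin, at 1.08 (adjusted p = 0.717), with 6.25, 6.56 and 8.85 in intrakidney tumors, against 5.82, 6.15 and 6.45 in subcutaneous tumors. Intrakidney tumor 3 alone stood well above the others.

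Of 25 receptor and cell surface partner genes, 0 passed with limma (5 higher and 2 lower at an unadjusted p of 0.05, against 4.72% and 3.71% of all genes), with a median of 0.06. Vldlr, a lipoprotein receptor that binds thrombospondin-1, differed by -0.38 (adjusted p = 0.325). Itgb5, an integrin chain in a receptor for periostin, stood at -0.28 (adjusted p = 0.360), and Itga3, an integrin chain that pairs with Itgb1, at 0.28 (adjusted p = 0.363). The thrombospondin-1 receptor genes Cd36 and Cd47 differed by 0.09 and 0.06.

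Of 18 matrix protease genes, 0 passed with limma (3 higher and 7 lower at an unadjusted p of 0.05, against 4.72% and 3.71% of all genes). Adamts1, which can cleave thrombospondins, measured 12.17, 12.02 and 12.12 in intrakidney tumors, against 11.53, 11.60 and 11.62 in subcutaneous tumors, a difference of 0.52 (adjusted p = 0.0533). The serine protease gene Htra1 differed by -0.41 (adjusted p = 0.0891) and the gelatinase gene Mmp2 by -0.74 (adjusted p = 0.0947). The median of the list was 0.011, with 9 members on either side of 0.

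Of 21 inducer and regulator genes, 0 passed with limma (2 higher and 2 lower at an unadjusted p of 0.05, against 4.72% and 3.71% of all genes), and the median was 0.018. Prrx1, a mesenchymal homeobox factor known to raise tenascin-C expression, measured 7.34, 7.26 and 7.43 in intrakidney tumors, against 7.83, 7.79 and 7.64 in subcutaneous tumors. Its groups did not overlap, with a difference of -0.41 (adjusted p = 0.161). Pdgfb, a growth factor of fibroblasts and pericytes, differed by 0.26 (adjusted p = 0.429) and Smad3, a mediator of TGF-beta signalling, by 0.19 (adjusted p = 0.547). The ligand genes Tgfb1 and Tgfb2 differed by -0.0031 and -0.0044.

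**Figure D4:**
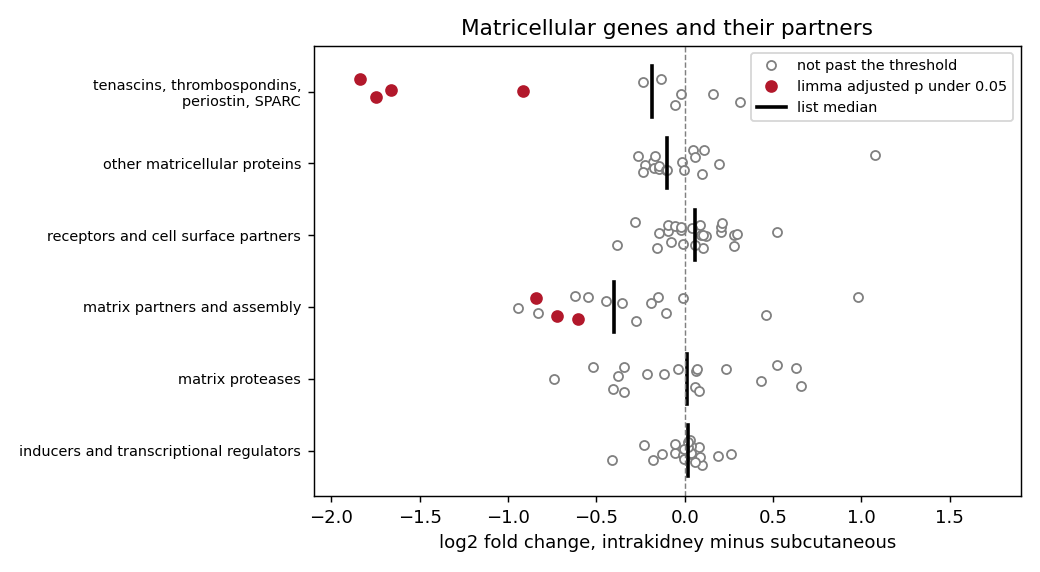
Log2 fold change, intrakidney minus subcutaneous (x axis), of the 10 genes and of the measured members of 5 partner lists (y axis); each point is a gene, filled where limma's adjusted p is under 0.05, and black bars are list medians. Filled points appear among the 10 genes and among the matrix partners, where they are the 3 collagen VI chains.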

How the data were processed

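Total RNA of 6 tumors was hybridised to Mouse Gene 1.0 ST arrays, per the labels. The deposited values are log2 expression values, and the submitters' processing notes name RMA and affy as the authors' tools; versions, settings and probe set definition are not given in the sources used here. RMA compresses changes of dim genes. The log2 scale is inferred from the range of the values (2.31 to 15.07).

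Of 35512 rows, 21789 were paired with exactly 1 gene. The row with the highest mean over the 6 arrays stood for a gene, which left 19938 genes, and each of the 10 genes described had 1 row. The 2 sites were set against each other in limma 3.58.1 under R 4.3.3 (a mean per group, eBayes, two-sided, Benjamini-Hochberg adjustment over all genes, threshold 0.05), checked on simulated data. Standard errors and 95% intervals are those of the moderated fit. Precision is limited by the number of arrays. The 10 genes and all lists were chosen with earlier results of these data known, so no test of the 10 is independent evidence.

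Genes named beside the 10 were the 3 members of each partner list with the lowest adjusted p, and the 3 genes with the closest profile to each of the 10 whose groups did not overlap and whose range was over 1 on the log2 scale. Any other gene named was chosen after its values were seen. Alternatives covered normalization, centring, dim genes, a linear offset of 16, rows per gene, the prior, array weights, a replicate block, each array left out, fibroblast content, intrakidney tumors 2 and 3 left out and an adjusted p of 0.01; testing every row was added after seeing the data. The planned comparison of protein sequences was not made here. Promoters are those of RefSeq on GRCm38.p6, used for sequence only, since the build behind the arrays is not given in the sources used here.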

Additional observations from a re-analysis of the deposited data

How the results depend on the processing

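All 10 genes were recomputed under each alternative, except that Comp had no value without dim genes. The signs of Tnn, Thbs2, Postn and Tnc were the same in all 17 alternatives that gave them a value, and the 4 genes passed under quantile normalization, median centring, without dim genes, with an offset, with the mean of all rows, with an intensity trend and with array weights. At an adjusted p of 0.01, 2 of the 10 passed, Tnc and Tnn. Whether the replicate numbers pair the tumors is not known. Correlations of same-numbered deviations were 0.37, -0.16 and 0.10, and those of differently numbered tumors ran from -0.44 to 0.43. With so few tumors per group these values cannot decide it. In limma the replicate block left 0 of the 10 and 0 of all genes past the threshold (smallest adjusted p = 0.0577, with 1825 genes at an unadjusted p of 0.05). Testing every row, chosen after seeing the data, also left 0 and 0 (smallest adjusted p = 0.0574; 2206 rows at an unadjusted p of 0.05), with more rows to adjust over. Without single arrays, 0 to 4 of the 10 and 2 to 33 of all genes passed, against 46 with all arrays, and 0 to 5 of the 16 matrix partners, against 3; the median of the 10 ran from -0.26 to -0.08. Of the matrix partners 0 passed with the replicate block, relative to the fibroblast mean or at an adjusted p of 0.01, and 1 without intrakidney tumors 2 and 3. Counts without intrakidney tumors 2 and 3, here and below, rest on a single intrakidney tumor, so nothing is read from them. Adamts1 passed after quantile normalization, after median centring, without dim genes, with an offset, with an intensity trend and with array weights. It did not pass when any single array was left out or with the replicate block. Counts over all genes were 101 without dim genes, 74 with an offset, 138 with an intensity trend, 624 with array weights, 692 relative to the fibroblast mean, 30 without intrakidney tumors 2 and 3, and 5 at an adjusted p of 0.01; the cause was not tested.

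Relative to the fibroblast mean, the median of all genes was 0.36, the median of the 10 genes 0.19 and that of other matricellular genes 0.27, while Thbs1, Thbs4, Comp and Sparc stood at 0.24, 0.14, 0.35 and 0.31, and Spock3, Tnr, Tgfbi and Itgb5 at 0.10, 0.19, 0.19 and 0.085; the signs of these genes and of both list medians turned because that setting adds the same amount to every gene's difference, so the calls it gives or takes away support nothing. On this scale Tnc no longer passed and Tnxb did. Values near 0 also turned: Comp was 0.0017 after quantile normalization, 0.022 with array weights and -0.059 to 0.031 without single arrays (0.015 without subcutaneous tumor 3), and Sparc was 0.023 with array weights and -0.11 to 0.0058 without single arrays. The median of the matrix proteases was -0.079 to 0.050 without single arrays (-0.074 without intrakidney tumor 2) and -0.21 without intrakidney tumors 2 and 3. Low signal limits Comp, which lay under the 40th percentile. It also limits the intrakidney values of Tnn, whose intrakidney mean of 6.18 was below that of Comp, 6.46.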
